A study of Mus musculus with 6 samples.

Results

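The MYC, MAX and MXD network is a family of basic helix-loop-helix leucine zipper transcription factors, described here by the RNA level of its 10 genes *Myc*, *Mycn*, *Max*, *Mxd1*, *Mxd3*, *Mxd4*, *Mxi1*, *Mnt*, *Mlx* and *Mga* in mouse CD8+ T cells. The genes were given by name and matched on the gene name in the deposited files, where all 10 were found among 54446 annotated genes. Of these 10 genes, 9 averaged 1 FPKM or more across the libraries and were among the 14991 genes tested. FPKM counts the fragments of a transcript relative to its length and to all fragments of the library, and transcripts of a gene were added up. RNA-Seq was performed on CD8+ T cells purified from the spleens of 8 week old wild-type C57BL/6 mice. The unstimulated group holds freshly isolated cells, and the control group holds cells stimulated for 72 h with antibodies against CD3 and CD28 on plates without magnets. The SMF group was stimulated in the same way for 72 h on permanent magnets that gave a static magnetic field (SMF) of 0.3 T. Each of the 3 groups has 2 libraries, and no label says whether these came from separate mice or cultures, so that p values measure the spread between these libraries, which may be technical.

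MYC cannot bind DNA well alone. It pairs with MAX, and the pair binds the E-box sequence CACGTG and recruits coactivators that raise transcription of genes for ribosome assembly, nucleotide synthesis and glycolysis, while MXD1, MXD3, MXD4, MXI1 and MNT compete for MAX and bring SIN3 corepressors with histone deacetylases to the same sites. MGA is a large MAX partner in a Polycomb complex, and MLX is a MAX-like protein that pairs with MondoA, ChREBP and some MXD proteins. In T cells, stimulation of the T cell receptor is known to induce MYC, which drives the growth and metabolic change before division.

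RefSeq promoter windows (GRCm38.p6, from 250 bases before to 50 bases after a gene's start) were found for 9 of the 10 network genes, all but *Myc*, and show which of these genes carry near their own start the sequence that the network proteins bind. Both strands were searched for the E-box CACGTG, which reads the same on both strands, and for the related CACGCG and CATGTG, and no 6 bases can match more than 1 of them. CACGTG was found in the windows of 4 network genes (*Max*, *Mxd4*, *Mnt* and *Mlx*), against 8.1% of 27025 genes with a window. CACGCG was found only in *Mga* among the 9 genes, against 10.5% of all genes, and CATGTG only in *Mxi1*, against 15.9%. The 30 bases around each CACGTG, and around the CACGCG of *Mga*, are given 5′ to 3′ on the strand of the gene, with the motif in capitals.
*Max*, chr12:76962234-76962263, minus strand: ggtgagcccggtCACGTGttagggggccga
*Mxd4*, chr5:34187912-34187941, minus strand: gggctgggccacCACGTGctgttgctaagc
*Mnt*, chr11:74830789-74830818, plus strand: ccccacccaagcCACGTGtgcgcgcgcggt
*Mlx*, chr11:101087238-101087267, plus strand: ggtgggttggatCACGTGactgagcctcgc
*Mga*, chr2:119897195-119897224, plus strand, where CGCGTG is CACGCG read on the other strand: agctggtaggagCGCGTGcgcagtgacgtg
The motif begins 3 bases before the RefSeq start in *Max*, 219 in *Mxd4*, 123 in *Mnt*, 40 in *Mlx* and 21 in *Mga*, and no transcript of GENCODE M21 covers any of these motifs. Of the 4 genes with CACGTG, *Max* and *Mlx* were called higher in stimulated control cells and *Mxd4* and *Mnt* were not called. A match of letters does not show binding. In the windows of 69 MYC activated targets, described further on, CACGTG was found in 29.0%, CACGCG in 34.8% and CATGTG in 13.0%.

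Depth was taken as bases covered and came to 64.4 to 171.7 Mb in unstimulated and control libraries and to 258.6 and 227.3 Mb in SMF libraries, which were the deepest. The file headers hold folder dates, and libraries that share a date are called a run here, although no label says what the date marks. Replicate 1 of the unstimulated and control groups shared 1 date, replicate 2 of both another, and both SMF libraries the third. Thus 0 runs hold SMF with another group, and the field and the run cannot be told apart. Genes of the type protein coding took 49.1 to 50.5% of the FPKM in the unstimulated and control libraries and 68.7 to 69.2% in the SMF libraries, and the part of this difference and of depth in the results for SMF was not tested. Genes of the type antisense took 19.5 to 24.7% in unstimulated and control libraries and 12.3 to 12.8% in SMF libraries. Whether the strand setting used for counting matches the kit is not given in the sources used here, and this bears on the value of every gene. The values of *Mxd3*, *Mxd4*, *Mxi1* and *Mlx*, which overlap genes of the opposite strand, may hold reads of those genes or have lost reads to them. All 10 CD8 T cell markers were above 0 in every group, with a summed FPKM of 1187.5 to 1193.6 in unstimulated, 698.4 to 892.6 in control and 1309.8 to 1372.6 in SMF libraries. The groups did not overlap in this sum. In control against unstimulated cells 3 of the 10 were called lower and 1 higher. Of all genes tested, 12.6% were called lower and 12.3% higher in that comparison. In SMF against control cells 3 of the 10 were called higher, against 12.5% of all genes. The summed FPKM of 8 B cell markers was 289.6 to 314.5 in unstimulated libraries, 45.4 to 48.2 in control libraries and 67.8 to 73.4 in SMF libraries. The 10 myeloid markers summed to 145.3 to 165.9 in unstimulated libraries and to 47.0 to 54.3 in stimulated ones. Of these markers, *Lyz2* was listed at 0 in stimulated libraries after 42.5 and 74.0 FPKM in unstimulated ones. *Csf1r*, which made up most of the sum in stimulated libraries, was not called. It had 68.46 and 63.89 FPKM in unstimulated, 47.0 and 53.77 FPKM in control, and 41.13 and 50.35 FPKM in SMF libraries. The part of these other cells in the differences from unstimulated cells was not tested, and fewer cells of a type and less RNA per cell cannot be told apart in bulk RNA. All 8 genes of T cell activation and division were called higher in control and in SMF libraries than in unstimulated ones. Of all genes, 12.3 and 22.4% were called higher in these comparisons. In SMF against control cells 2 of the 8 were called higher, against 12.5% of all genes. *Gzmb*, which encodes granzyme B, had 10.2 and 11.7 FPKM in unstimulated, 1494 and 1565 FPKM in control, and 2282 and 4283 FPKM in SMF libraries.

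The question first addressed was which network genes differ after stimulation without a field. A gene was called where its mean differed 2-fold or more on the log2(FPKM + 1) scale and limma gave p of 0.05 or less before adjustment; the p printed beside a gene is the one adjusted over all genes. In control against unstimulated cells 5 of the 9 tested network genes were called higher (*Myc*, *Max*, *Mxd3*, *Mxi1* and *Mlx*) and 0 lower, while 12.3% of all genes tested were called higher and 12.6% lower. With an adjusted p of at most 0.05, which 8.43% of all genes reached with that fold change in either direction, 1 network gene was called, *Mxd3*. The median log2 fold change of the 9 genes was 1.09, against -0.05 for all genes tested. Without unstimulated replicate 2, control replicate 2 or either SMF library, which share in the estimate of the spread, fewer network genes were called higher. Leaving out the last exon of every transcript gave 1 such call, *Mxi1*, against 11.1% of all genes.

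**Figure D1:**
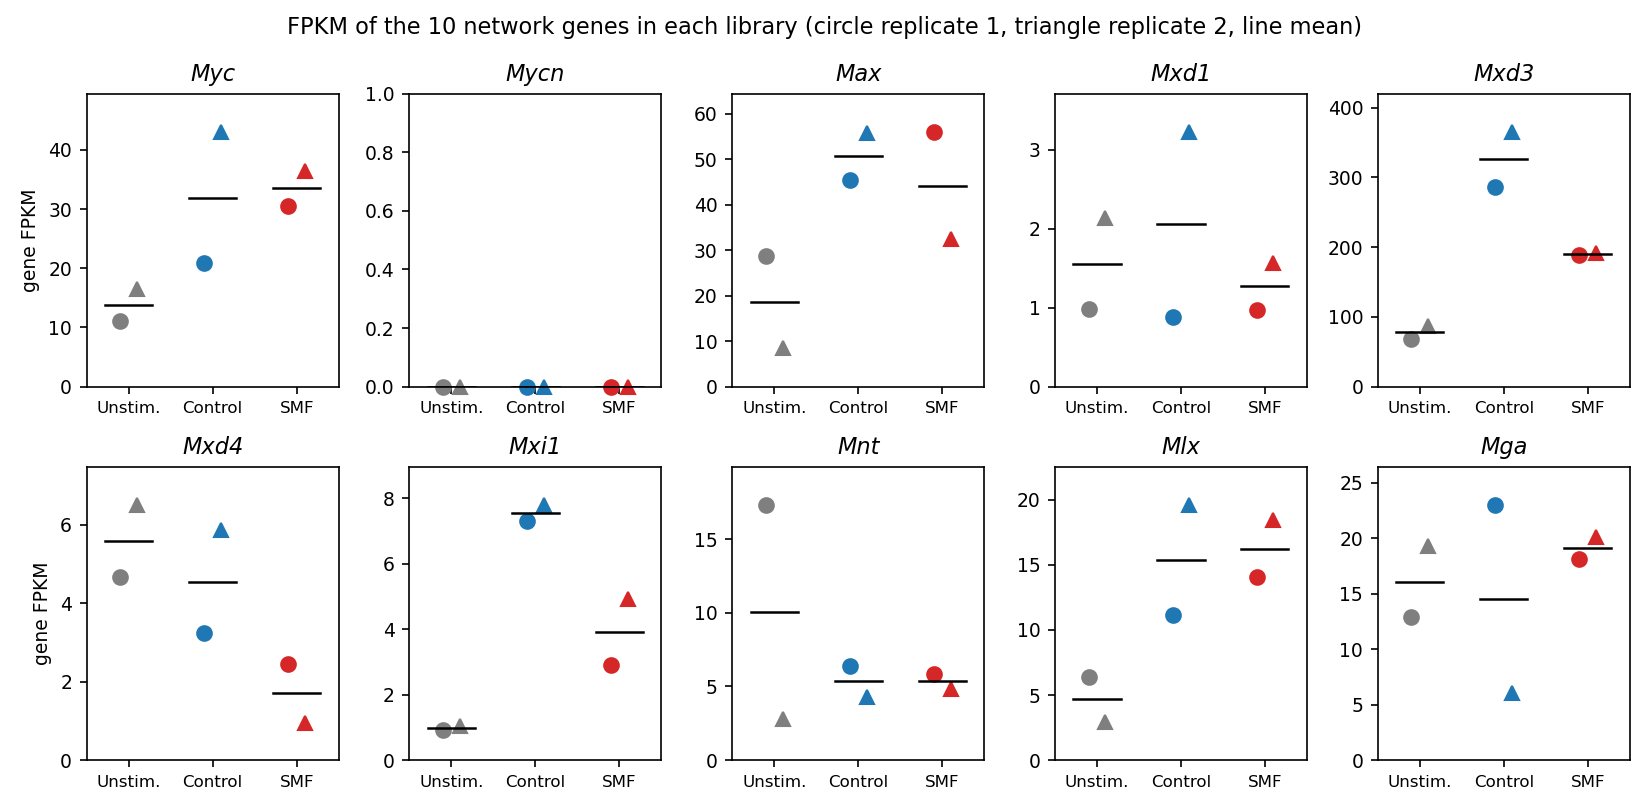
Gene FPKM (y axis, linear, from 0, with its own scale for each gene) of the 10 network genes in unstimulated (grey), control (blue) and SMF (red) libraries; circles are replicate 1, triangles replicate 2 and lines group means. *Mxd3* lies at 285.95 and 365.56 FPKM in control cells, above both other groups, and *Mycn* lies at 0 throughout.

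*Myc* (ENSMUSG00000022346.15, chr15:61985391-61990374, plus strand) encodes the activating member. It had 11.07 and 16.52 FPKM in unstimulated, 20.83 and 43.06 FPKM in control, and 30.55 and 36.40 FPKM in SMF libraries. Every stimulated library lay above both unstimulated ones. The control libraries, which came from different runs, spanned a wider range than the SMF libraries, which shared a run and lay inside that range. *Myc* was called higher in control cells, with a log2 fold change of 1.09 ± 0.45 (SE, adjusted p = 0.183), and the differences within the runs were 0.85 and 1.33. The value was 0.59 without control replicate 2 and 0.82 without unstimulated replicate 1, with no call, and of the 6 libraries only leaving out control replicate 1 kept the call. It was also called higher in SMF than in unstimulated cells, by 1.24 ± 0.45 (adjusted p = 0.092). This call was lost when libraries were brought to 1 median (0.99), to 1 sum over protein-coding genes (0.75) or scaled by trimmed means (0.96), and without any 1 of the unstimulated or SMF libraries. Between SMF and control cells the log2 fold change was 0.15 ± 0.45 (adjusted p = 0.89).

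The 8 annotated *Myc* transcripts, all of the type protein coding, were each above 0 in at least 1 library and differed between libraries, also within a group. Myc-202 took 100% of the gene's FPKM in unstimulated replicate 1 and 0% in replicate 2, where Myc-205 took 61.4% and Myc-203 38.6%. Myc-206 was listed at 0 in unstimulated and control libraries and had 15.4 and 13.4 FPKM in SMF libraries, while Myc-204 had 7.38 and 16.1 FPKM in control and 2.67 and 0.848 FPKM in SMF libraries. Over the exons before the last, the value of *Myc* was 13.98 and 14.99 in unstimulated, 14.85 and 31.23 in control, and 10.44 and 11.03 in SMF libraries. On that scale the SMF libraries lay below all others, and the log2 fold change of SMF against unstimulated cells turned to -0.40, which was not called. Of the covered bases of *Myc*, the last exon held 33.2 and 57.0% in unstimulated, 59.5 and 57.2% in control, and 80.8 and 83.4% in SMF libraries. The direction of *Myc* in SMF against unstimulated cells thus changed when last exons were left out.

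*Mycn* (ENSMUSG00000037169.15, chr12:12936093-12941914, minus strand), which encodes the MYC relative of embryonic tissue, was listed at 0 in all 6 libraries. *Mycl*, the third *Myc* gene, was also listed at 0 throughout.

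*Max* (ENSMUSG00000059436.13, chr12:76937269-76962201, minus strand) encodes the shared partner. It had 28.76 and 8.40 FPKM in unstimulated, 45.52 and 55.71 FPKM in control, and 56.06 and 32.37 FPKM in SMF libraries. The unstimulated libraries lay below the other 4 but differed more than 3-fold from each other. *Max* was called higher in control cells, by 1.62 ± 0.60 (adjusted p = 0.149), and was not called in SMF cells, with 1.38 ± 0.60 (adjusted p = 0.142). The call in control cells was lost in 5 of the 6 fits that leave out a library, all but that without unstimulated replicate 1, and the value was 0.79 without unstimulated replicate 2. The coverage of the unstimulated libraries was uneven, since the last exon held 69.2% of the covered bases of *Max* in replicate 1 and 2.8% in replicate 2. Over the exons before the last the 2 unstimulated values were 38.25 and 34.84, the control values 24.71 and 45.50, and the log2 fold change of control against unstimulated cells was -0.12, with no call. The coding transcript Max-202 took 67.2 and 100% of the gene's FPKM in unstimulated, 97.4 and 52.4% in control, and 41.2 and 56.2% in SMF libraries.

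*Mxd3* (ENSMUSG00000021485.14, chr13:55325168-55329823, minus strand), the MXD member known from dividing cells, had the highest FPKM of the network in every library. It had 68.45 and 87.53 FPKM in unstimulated, 285.95 and 365.56 FPKM in control, and 189.08 and 191.71 FPKM in SMF libraries, with no overlap between any 2 groups. It was called higher in control cells, by 2.05 ± 0.25 (adjusted p = 0.0133, and 0.00924 to 0.699 over the alternatives), with 2.05 in each run, and in SMF cells, by 1.29 ± 0.25 (adjusted p = 0.0181, and 0.0126 to 0.816 over the alternatives). Between SMF and control cells the difference was -0.76 ± 0.25 (adjusted p = 0.186), below the 2-fold limit. The call in SMF against unstimulated cells was lost with 1 sum over protein-coding genes (0.78) and with trimmed means (0.99).

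Almost all of the *Mxd3* value came from the last of its 6 exons, which holds 731 of the 1327 bases of the transcript. This exon is 55.1% of the length and held 99.4% of the covered bases over the 6 libraries, against a median of 45.2% for 9852 protein-coding genes with several exons, of which 7.9% were at 95% or more. Coverage of the last exon on the FPKM scale was 124.3 and 149.4 in unstimulated, 518.2 and 663.6 in control, and 340.3 and 348.0 in SMF libraries. The value over the 5 exons before it was 0, 1.13, 0 and 0 in 4 of the libraries, unstimulated replicate 1, both control libraries and SMF replicate 2, and 11.64 and 3.59 in unstimulated replicate 2 and SMF replicate 1. On that scale both calls of *Mxd3* were lost, with log2 fold changes of -1.29 for control and -0.73 for SMF against unstimulated cells. The last exon shares 105 bases with the opposite-strand gene *Prelid1*, which had 173.9 to 305.5 FPKM, and the part of this overlap in the value of *Mxd3* was not tested.

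**Figure D2:**
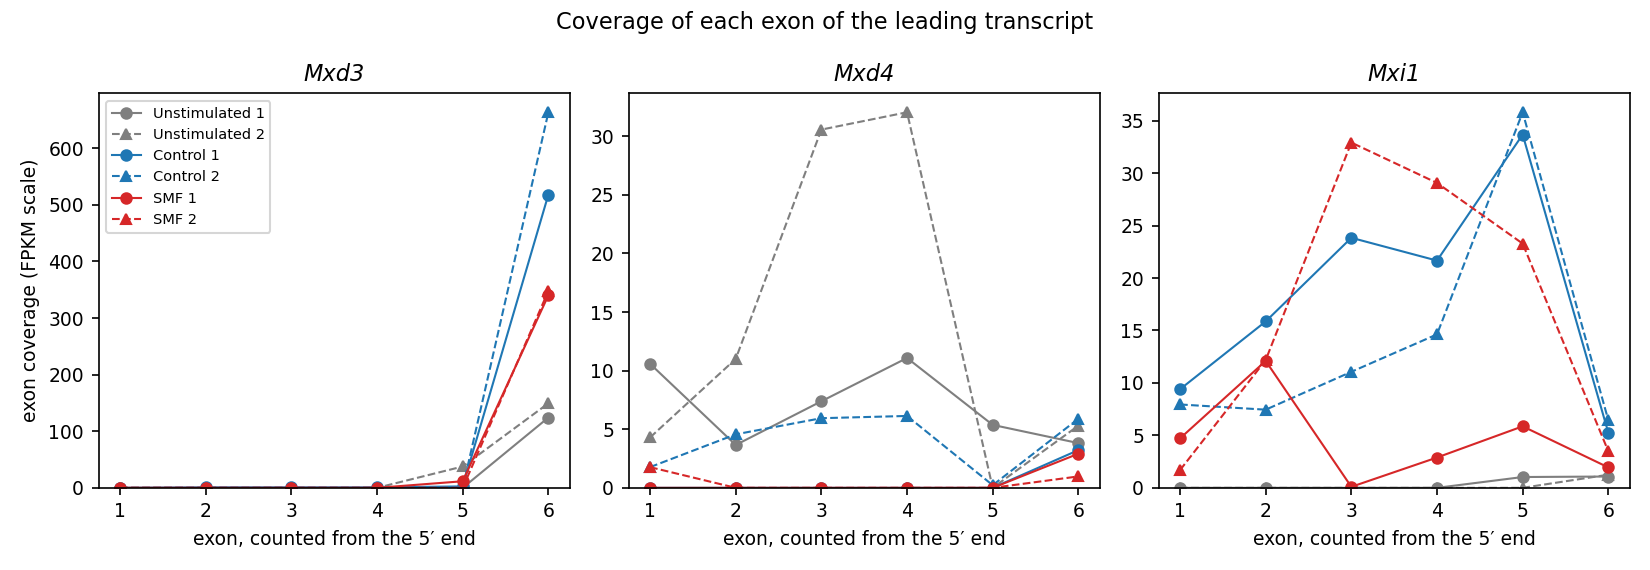
Coverage of each exon (y axis, FPKM scale, own scale for each gene) against the exon number from the 5′ end in the leading transcripts of *Mxd3*, *Mxd4* and *Mxi1*, with 1 line per library (grey unstimulated, blue control, red SMF). *Mxd3* is covered almost only in exon 6, while *Mxi1* is covered over all 6 exons in control libraries and near 0 in unstimulated ones.

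*Mxi1* (ENSMUSG00000025025.13, chr19:53310506-53375810, plus strand) encodes the MXD2 protein. It had 0.92 and 1.03 FPKM in unstimulated, 7.32 and 7.79 FPKM in control, and 2.90 and 4.94 FPKM in SMF libraries. The 3 groups did not overlap, and the SMF libraries lay between the others. *Mxi1* was called higher in control cells, by 2.11 ± 0.50 (adjusted p = 0.0557), with 2.11 and 2.12 in the runs, and in SMF cells, by 1.29 ± 0.50 (adjusted p = 0.113). The difference of SMF from control cells was -0.83 ± 0.50 (adjusted p = 0.387). Unlike *Mxd3*, the gene was covered along its length: over the exons before the last it had 0.19 and 0 in unstimulated, 16.89 and 14.03 in control, and 6.39 and 11.70 in SMF libraries, and both calls stood on that scale with 3.91 and 3.15. The call in SMF against unstimulated cells was lost under each of the 3 scalings (0.95 to 1.08), with the replicate number as a block, and without any 1 of the unstimulated or SMF libraries. The opposite-strand gene *Gm10197* lies almost wholly within the last exon, with 194 of its 201 bases, and had 279.9 and 162.7 FPKM in unstimulated, 1153 and 1151 FPKM in control, and 133.5 and 301.5 FPKM in SMF libraries. Its part in the last-exon value was not tested.

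*Mxd4* (ENSMUSG00000037235.13, chr5:34173883-34187720, minus strand), known from resting and differentiated cells, had 4.68 and 6.50 FPKM in unstimulated, 3.23 and 5.88 FPKM in control, and 2.45 and 0.96 FPKM in SMF libraries. The SMF libraries lay below the other 4, and the unstimulated and control libraries overlapped. The log2 fold change was -1.33 ± 0.57 (adjusted p = 0.141) for SMF against unstimulated and -1.05 ± 0.57 (adjusted p = 0.339) for SMF against control cells, and neither was called. Over the exons before the last *Mxd4* had 7.98 and 10.78 in unstimulated, 0 and 2.84 in control, and 0 and 0.58 in SMF libraries. On this scale both stimulated groups lay below the unstimulated one, and *Mxd4* was called lower in control cells, by -2.39, and in SMF cells, by -3.03. The antisense gene *Gm42846* lies with all 514 bases in the exons of *Mxd4* and had 399.3 and 529.3 FPKM in unstimulated, 319.4 and 342.2 FPKM in control, and 80.6 and 59.0 FPKM in SMF libraries. The part of its reads in the last exon of *Mxd4* was not tested.

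*Mxd1* (ENSMUSG00000001156.9, chr6:86647042-86669161, minus strand), a repressor known from differentiating cells, was low in all libraries, with 0.98 and 2.14 FPKM in unstimulated, 0.88 and 3.23 FPKM in control, and 0.97 and 1.57 FPKM in SMF libraries. The groups overlapped, and the largest of its log2 fold changes was -0.32 ± 0.67 for SMF against control cells.

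*Mnt* (ENSMUSG00000000282.12, chr11:74830920-74845725, plus strand) encodes a broadly expressed MAX partner that represses MYC targets. It had 17.29 and 2.76 FPKM in unstimulated, 6.38 and 4.31 FPKM in control, and 5.84 and 4.84 FPKM in SMF libraries. The unstimulated libraries enclosed all others, and *Mnt* was not called in any comparison. Unstimulated replicate 1 stood apart through the retained-intron transcript Mnt-203, with 12.4 FPKM there and 1.39 FPKM in replicate 2. The coding transcript Mnt-201 had 4.91 and 1.36 FPKM in unstimulated, 2.24 and 3.13 FPKM in control, and 3.34 and 3.56 FPKM in SMF libraries. The log2 fold change of control against unstimulated cells was -0.40 ± 0.78, 0.74 without unstimulated replicate 1, and -1.55, a call, without unstimulated replicate 2.

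*Mlx* (ENSMUSG00000017801.15, chr11:101087277-101092207, plus strand) had 6.37 and 2.96 FPKM in unstimulated, 11.12 and 19.56 FPKM in control, and 14.03 and 18.44 FPKM in SMF libraries. All stimulated libraries lay above both unstimulated ones. It was called higher in control cells, by 1.55 ± 0.50 (adjusted p = 0.113), and in SMF cells, by 1.66 ± 0.50 (adjusted p = 0.0595). Both calls were lost without unstimulated replicate 2 (1.10 and 1.21) and with coding transcripts only (1.41 and 0.60). In control replicate 1 the last exon held 100% of the covered bases, and over the exons before the last the values were 7.16 and 1.43 in unstimulated, 0 and 15.96 in control, and 21.58 and 14.71 in SMF libraries. On that scale the control libraries lay on both sides of the unstimulated ones, with a log2 fold change of -0.11, whereas both SMF libraries lay above them. The exons of *Mlx* share 385 bases with the opposite-strand gene *Psmc3ip*, which had 123.4 and 23.1 FPKM in unstimulated and 94.3 to 131.7 FPKM in stimulated libraries, and its part was not tested.

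*Mga* (ENSMUSG00000033943.15, chr2:119897228-119969581, plus strand) had 12.88 and 19.28 FPKM in unstimulated, 22.99 and 6.09 FPKM in control, and 18.16 and 20.15 FPKM in SMF libraries. The control libraries enclosed all others, and no comparison was called, although without control replicate 1 *Mga* was called lower in control than in unstimulated cells, by -1.24. The coding transcript Mga-204 was steadier, with 6.77 and 6.25 FPKM in unstimulated, 6.63 and 5.44 FPKM in control, and 9.64 and 11.1 FPKM in SMF libraries, where it was higher than in all other libraries. The log2 fold change of SMF against control cells was 0.69 over coding transcripts and 0.63 ± 0.62 over all transcripts (adjusted p = 0.583), with no call in either.

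For the field, the question was which network genes differ between stimulated cells with and without magnets. In SMF against control cells 0 of the 9 tested network genes were called higher and 0 lower in limma, while 12.5% of all genes tested were called higher and 5.72% lower. At an unadjusted p under 0.05 without the fold limit 1 network gene was found, *Mxd3*, and 21.1% of all genes. With an adjusted p of at most 0.05 and the fold change, 0.0267% of all genes were called. The median log2 fold change was -0.24 for the network genes and 0.32 for all genes tested, and 1 of the 9 genes, *Mga*, lay above the median of all genes. In SMF against unstimulated cells 4 of the 9 were called higher (*Myc*, *Mxd3*, *Mxi1* and *Mlx*) and 0 lower, while 22.4% of all genes were called higher, 14.8% lower, and 23.3% in either direction with an adjusted p of at most 0.05. The median was 1.24 for the network genes and 0.27 for all genes, and this comparison shares its unstimulated libraries with that of control cells. When the libraries were brought to 1 median, the median of all genes in SMF against control cells moved from 0.32 to -0.02 and the calls over all genes from 1868 higher and 857 lower to 877 higher and 1441 lower. On that scale *Mxd3* and *Mxd4* were called lower in SMF than in control cells, with log2 fold changes of -1.10 and -1.39, and 2 rather than 4 network genes were called higher in SMF than in unstimulated cells, where 18.4% of all genes were. With 1 sum over protein-coding genes 0 network genes were called higher in that comparison, against 15.4% of all genes, and with trimmed means 1, against 17.9%.

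**Figure D3:**
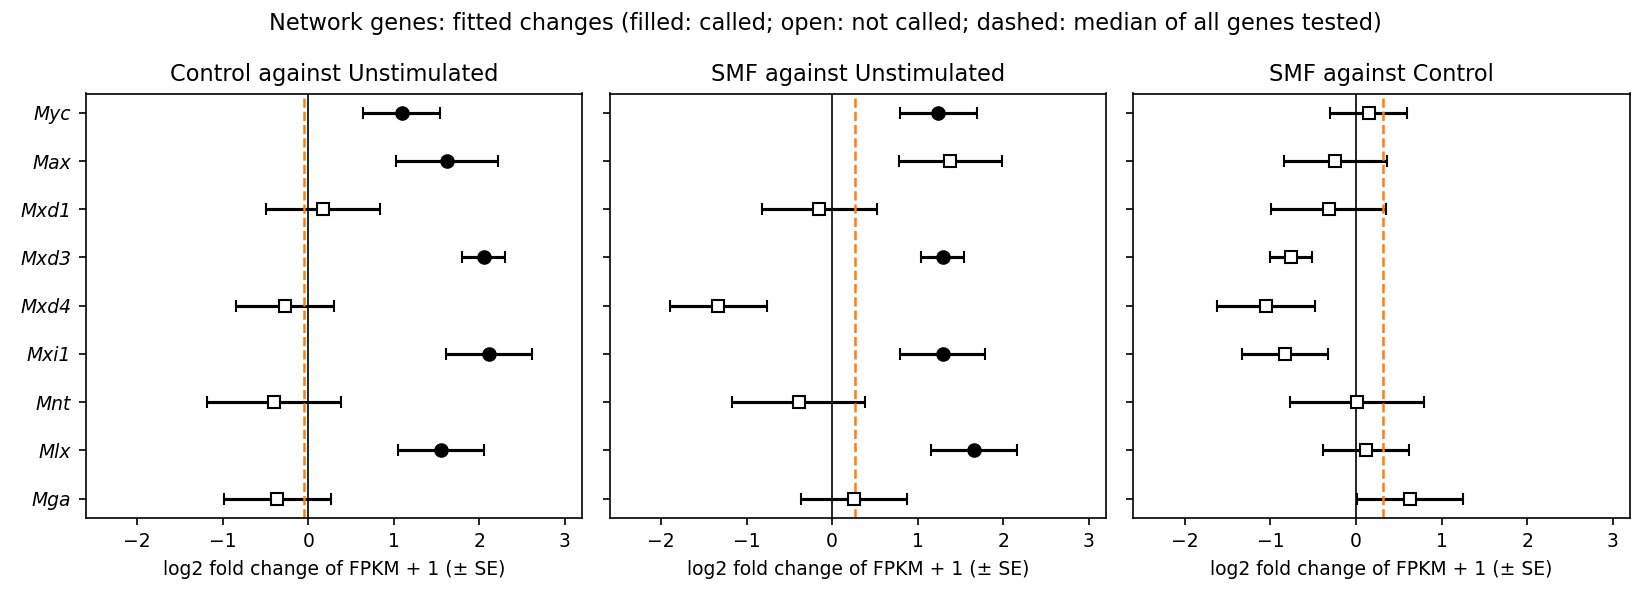
Log2 fold change of FPKM + 1 (x axis, bars are 1 SE) of the 9 tested network genes in the 3 comparisons; filled circles are called genes, open squares are not, and the dashed line is the median of all genes tested. In SMF against control cells all 9 are open, and *Mga* is the only one above the dashed line at 0.32.

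The balance of the network was described within each library, where the scaling of the library cancels. *Myc* FPKM over the summed FPKM of *Mxd1*, *Mxd3*, *Mxd4*, *Mxi1* and *Mnt* was 0.12 and 0.165 in unstimulated, 0.0686 and 0.111 in control, and 0.152 and 0.178 in SMF libraries. The control libraries lay below the others. *Mxd3* alone took 45.2 and 59.5% of the summed FPKM of the 10 genes in unstimulated, 70.7 and 71.5% in control, and 59.1 and 61.6% in SMF libraries. Without *Mxd3* the ratio was 0.464 and 1.33 in unstimulated, 1.17 and 2.03 in control, and 2.51 and 2.96 in SMF libraries, and the SMF libraries lay above all others. With the last exons left out it was 0.661 and 0.571 in unstimulated, 0.626 and 1.33 in control, and 0.658 and 0.54 in SMF libraries, and the groups overlapped. The order of the groups thus changed with the genes and exons counted.

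By FPKM over all exons, *Mxd3* led in every library and *Max* or *Myc* followed in the stimulated ones, while *Mxd1*, *Mxd4* and *Mxi1* had at most 7.79 FPKM. With last exons left out *Mxd3* had at most 11.64 and *Max* had 24.71 to 80.07. The protein-coding genes whose log2(FPKM + 1) ran most like that of *Myc* over the 6 libraries, among 6922 genes of 5 FPKM or more on average, were *Eif2ak1* (Pearson r = 0.989), *2610318N02Rik* (0.982) and *Cdc25b* (0.98). *Eif2ak1*, which encodes a kinase of the translation factor eIF2, had 31.3 and 49.0 FPKM in unstimulated, 78.2 and 143.0 FPKM in control, and 108.6 and 134.5 FPKM in SMF libraries. Like *Myc*, it was highest in control replicate 2 and lowest in unstimulated replicate 1. These points share their libraries and depth, and the correlations are a description.

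Of the genes that MYC is known to activate, some were called higher and none lower in each of the 3 comparisons. The list held 78 textbook targets, of which 77 were tested (*Tert* was not). In control against unstimulated cells 40 of 77 were called higher and 0 lower, against 12.3% of all genes called higher, and 16 passed with an adjusted p of at most 0.05, against 4.48%. Their median log2 fold change was 1.19, against -0.05 for all genes, and 1.03 against -0.098 without control replicate 2. In both runs 61 of the 77 were higher, as were 4631 of all 14991 genes. The medians of the 77 in the runs were 1.26 and 1.18. In SMF against unstimulated cells 67 were called higher and 0 lower, 61 of them with an adjusted p of at most 0.05, against 22.4 and 14.1% of all genes, and the median was 2.34 against 0.27.

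Between SMF and control cells 32 of the 77 targets were called higher and 0 lower, against 12.5% of all genes called higher, and 71 lay above the median of all genes. With an adjusted p of at most 0.05, 0 were called. The median log2 fold change was 1.12, against 0.32 for all genes. When the libraries were brought to 1 median, or scaled by trimmed means, 16 of 77 were called higher, against 5.85 and 5.96% of all genes. The targets lay 0.80 and 0.73 above the median of all genes under these scalings. With coding transcripts only, or with last exons left out, they lay 0.58 and 0.64 above it. Without SMF replicate 1, SMF replicate 2 or control replicate 1 the targets lay 0.78, 0.73 and 0.67 above that median. *Myc* itself was not called in this comparison, and the part of the run, which holds all SMF libraries alone, cannot be told apart from that of the field.

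The targets were sorted by textbook role after their values were seen. Of 27 genes of the nucleolus and of ribosome assembly, 10 were called higher in control and 23 in SMF cells, each against unstimulated cells. In SMF against control cells 10 were called higher. The shares of all genes called higher in these 3 comparisons were 12.3, 22.4 and 12.5%. *Ncl*, which encodes the nucleolar protein nucleolin, had 52.5 and 53.9 FPKM in unstimulated, 99.3 and 137.0 FPKM in control, and 332.0 and 303.0 FPKM in SMF libraries. Its 3 groups did not overlap. Of 12 genes of glycolysis, glutamine use and nutrient uptake, 10 were called higher in control and 11 in SMF cells. In SMF against control cells 2 of the 12 were called higher, near the share of all genes. *Tfrc*, the transferrin receptor that brings in iron, had the largest rise of the list, from 2.32 and 3.01 FPKM in unstimulated to 82.7 and 105.9 FPKM in control cells, a log2 fold change of 4.69 ± 0.30 (adjusted p = 0.0052), and had 181.9 and 172.1 FPKM in SMF libraries. *Pkm*, pyruvate kinase, rose by 3.10 ± 0.27 (adjusted p = 0.00707), from 52.7 and 69.4 FPKM to 434.9 and 636.8 FPKM. *Ldha*, lactate dehydrogenase A, had 52.4 and 46.3 FPKM in unstimulated, 275.5 and 424.5 FPKM in control, and 707.9 and 872.4 FPKM in SMF libraries, and rose by 3.97 ± 0.28 in SMF against unstimulated cells (adjusted p = 0.00302).

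Of the 9 tested genes of the cell cycle and chromosomes, 7 were called higher in control and 9 in SMF cells, against 12.3 and 22.4% of all genes. *Cdk4*, the G1 kinase, had 4.61 and 104.6 FPKM in unstimulated and 322.0 to 389.6 FPKM in stimulated libraries, so that its log2 fold change of 3.98 ± 1.22 in control cells came with a wide error (adjusted p = 0.0996). *Rcc1*, a chromatin factor for the RAN GTPase, rose by 2.83 ± 0.39 in control cells (adjusted p = 0.0156), from at most 1.71 FPKM to 18.7 and 15.0 FPKM. *Hspd1*, the mitochondrial chaperonin, rose by 3.96 ± 0.36 in SMF against unstimulated cells (adjusted p = 0.00399), with 18.9 and 36.7 FPKM in unstimulated, 128.7 and 164.6 FPKM in control, and 413.6 and 435.9 FPKM in SMF libraries. *Wdr74*, a ribosome assembly factor, was listed at 0 in both unstimulated libraries and control replicate 1 and had 20.4 to 45.6 FPKM in the other 3.

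The 4 called targets with the largest differences between SMF and control cells encode enzymes of nucleotide and polyamine synthesis. In the group of polyamine, nucleotide and folate metabolism 7 of 14 genes were called higher, against 12.5% of all genes. The share was larger in the mitochondrial and protein folding group, with 6 of 7. In the groups of cell cycle and of translation and RNA processing 4 of 9 and 3 of 8 were called higher. *Cad*, which starts pyrimidine synthesis, had 3.18 and 13.0 FPKM in control and 52.8 and 75.5 FPKM in SMF libraries, a log2 fold change of 3.07 ± 0.70 (adjusted p = 0.141). It was not called in control against unstimulated cells, where it had 2.84 and 7.59 FPKM. *Srm*, spermidine synthase, had 7.45 and 21.1 FPKM in control and 65.9 and 74.9 FPKM in SMF libraries, a change of 2.38 ± 0.64 (adjusted p = 0.159). *Nme1*, a nucleoside diphosphate kinase, differed by 2.16 ± 0.41 (adjusted p = 0.136), and *Gart*, of purine synthesis, by 2.07 ± 0.55 (adjusted p = 0.159). These 4 genes were picked for the size of this difference, so that SMF libraries above control libraries largely follow from the choice. Their SMF libraries also lay above the unstimulated ones, and the share of all genes with this order was not computed.

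Genes that MYC is known to repress were called in both directions. Of 11 tested genes, 4 were called higher and 3 lower in control cells, and 3 higher and 4 lower in SMF cells, against 12.3 and 12.6% of all genes in the first comparison and 22.4 and 14.8% in the second. *Klf2*, a factor of resting T cells, had 52.7 and 76.5 FPKM in unstimulated, 0 and 0.52 FPKM in control, and 0 and 2.56 FPKM in SMF libraries, and fell by 5.71 on the log2 scale in control cells (adjusted p = 0.0134). *Btg1*, which slows proliferation, fell by 2.02 (adjusted p = 0.0281), and *Tob1*, of the same family, fell by 1.82 in SMF against unstimulated cells (adjusted p = 0.0438). *Cdkn1a*, the p21 cell cycle inhibitor, was called higher, from 1.59 and 0 FPKM to 20.4 and 13.0 FPKM in control and 52.0 and 67.3 FPKM in SMF libraries. It was the 1 gene of the list called between SMF and control cells, by 1.80 ± 0.57 (adjusted p = 0.179). *Ndrg1*, a stress-response gene, rose by 3.61 ± 0.51 in control cells (adjusted p = 0.0164).

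**Figure D4:**
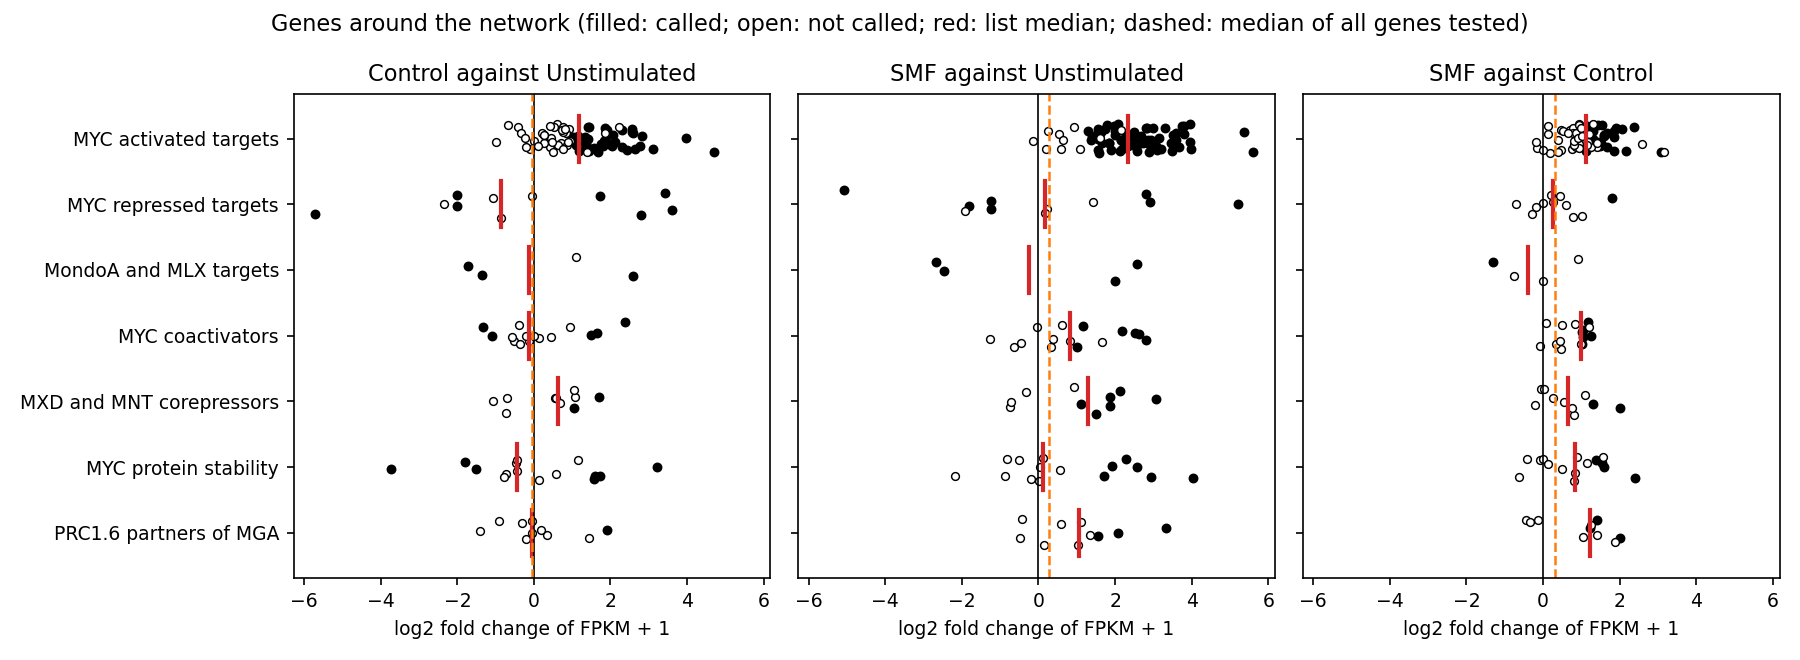
Log2 fold change of FPKM + 1 (x axis) of each tested gene in 7 lists around the network, in the 3 comparisons; filled points are called, open points are not, red bars are list medians and the dashed line is the median of all genes tested. The MYC activated targets lie mostly to the right of the dashed line in all 3 panels, with medians of 1.19, 2.34 and 1.12, while the MYC repressed targets spread to both sides.

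MLX acts with MondoA, encoded by *Mlxip*, and ChREBP, encoded by *Mlxipl*, on glucose-responsive genes. *Mlxipl* was listed at 0 in all libraries, and *Mlxip* had 10.99 and 9.38 FPKM in unstimulated, 12.5 and 5.12 FPKM in control, and 3.83 and 4.38 FPKM in SMF libraries, with no call. *Txnip*, the best known MondoA target, which limits glucose uptake, had 65.0 and 63.9 FPKM in unstimulated, 21.1 and 17.0 FPKM in control, and 11.3 and 10.4 FPKM in SMF libraries. Its 3 groups did not overlap, and replicates lay close together. *Txnip* fell by 1.71 on the log2 scale in control cells (adjusted p = 0.0285) and by 2.47 in SMF cells (adjusted p = 0.00627), and the difference of SMF from control cells, -0.76 ± 0.31, was under 2-fold and not called. *Arrdc4*, the paralog of *Txnip*, was listed at 0 throughout. The promoter window of *Txnip* (GRCm38.p6, plus strand) holds no CACGTG and CACGCG 2 times, 160 and 52 bases before the start, both within an exon of the gene *Gm15441* in GENCODE M21, and the motif is again in capitals.
*Txnip*, chr3:96557785-96557814: gcacaccgtgtcCACGCGccccggcggcct
*Txnip*, chr3:96557893-96557922, CACGCG read on the other strand: caggccagcactCGCGTGgagcgccaagcc
Of the other genes of the MondoA list, *Hk2*, hexokinase 2, which is also on the list of MYC activated targets, rose by 2.58 ± 0.41 in control cells (adjusted p = 0.0205) and *Pfkfb3*, a regulator of glycolysis, rose by 2.0 ± 0.51 in SMF against unstimulated cells (adjusted p = 0.0378). *Tkfc*, a kinase of sugar metabolism, was called lower in every comparison, with 58.6 and 31.2 FPKM in unstimulated, 21.1 and 12.3 FPKM in control, and 5.42 and 6.42 FPKM in SMF libraries.

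Among 15 MYC coactivator genes, 3 were called higher and 2 lower in control cells, 6 higher in SMF against unstimulated cells and 6 higher in SMF against control cells, where the shares of all genes called higher were 12.3, 22.4 and 12.5%. *Ruvbl2* and *Ruvbl1*, which encode paired helicases of chromatin complexes, led the first comparison. *Ruvbl2* had 10.3 and 13.6 FPKM in unstimulated, 69.4 and 61.8 FPKM in control, and 88.7 and 88.1 FPKM in SMF libraries, and rose by 2.37 ± 0.29 in control cells (adjusted p = 0.013). *Ruvbl1* rose by 1.65 ± 0.31 (adjusted p = 0.0301) in control cells. *Crebbp*, an acetyltransferase, was called lower in control cells, with -1.33 on the log2 scale (adjusted p = 0.185). Between SMF and control cells the largest called differences, among genes averaging 5 FPKM or more, were 1.25 ± 0.43 in *Wdr5*, which anchors MYC to chromatin, 1.18 ± 0.39 in *Cdk9*, the kinase that releases paused polymerase, 1.05 ± 0.32 in *Actl6a* and 1.04 ± 0.36 in *Trrap*, with adjusted p of 0.174 to 0.199.

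Of 10 corepressor genes used by MXD and MNT proteins, 2 were called higher in control cells, 6 in SMF against unstimulated and 2 in SMF against control cells, and 0 lower in any of them, against the same shares of all genes. *Hdac1*, a histone deacetylase, had 33.5 and 34.8 FPKM in unstimulated, 92.8 and 55.5 FPKM in control, and 138.6 and 116.7 FPKM in SMF libraries. *Sap30*, a SIN3 subunit, was called higher in control cells, by 1.69 ± 0.51 (adjusted p = 0.0958). *Rbbp7* and *Rbbp4*, histone-binding subunits of the same complexes, were the 2 genes called between SMF and control cells, by 2.0 ± 0.56 and 1.31 ± 0.34 (adjusted p = 0.167 and 0.156).

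MYC is short-lived, and its half-life is set by ubiquitin ligases and kinases. Of 15 such genes, 4 were called higher and 3 lower in control cells, 6 higher in SMF against unstimulated cells and 4 higher in SMF against control cells. Of all genes 12.3% were called higher and 12.6% lower in the first comparison, 22.4% higher in the second and 12.5% higher in the third. The list medians of -0.44 and 0.11 in the first 2 lay below those of all genes. In the third the list median of 0.84 lay above that of all genes, 0.32. *Plk1*, a mitotic kinase that stabilizes MYC, had 2.51 and 0.79 FPKM in unstimulated, 18.8 and 26.3 FPKM in control, and 43.0 and 37.0 FPKM in SMF libraries, and *Pim2*, a kinase of activated lymphocytes, rose by 1.73 ± 0.46 in control cells (adjusted p = 0.0727). *Aurka*, another mitotic kinase, was called higher in SMF than in control cells, by 1.38 ± 0.37 (adjusted p = 0.159). The deubiquitinase genes *Usp28* and *Usp36* were called lower in control cells, with -3.74 and -1.79 on the log2 scale (adjusted p = 0.0596 and 0.133), and *Usp28* had 47.2 and 21.6 FPKM in unstimulated libraries and at most 8.53 FPKM in stimulated ones. *Fbxw7*, the ligase that marks MYC for degradation, had 9.59 and 4.48 FPKM in unstimulated, 1.08 and 2.40 FPKM in control, and 9.36 and 4.74 FPKM in SMF libraries, and was called lower in control than in unstimulated cells, with -1.52 on the log2 scale, and higher in SMF than in control cells, by 1.54 ± 0.61 (adjusted p = 0.228).

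Of 10 genes for subunits of the PRC1.6 complex, in which MGA and MAX take part, 1 was called higher in control cells, and 3 in SMF cells against each of the other groups, while 12.3% of all genes were called higher in control cells and 22.4 and 12.5% in SMF cells against unstimulated and control cells. *Tfdp1*, the partner of E2F6, had 9.55 and 10.5 FPKM in unstimulated, 26.8 and 61.6 FPKM in control, and 102.0 and 117.4 FPKM in SMF libraries, and rose by 1.92 ± 0.44 in control cells (adjusted p = 0.0493). *Cbx1*, a heterochromatin protein, was called higher in SMF than in control cells, by 1.22 ± 0.31 (adjusted p = 0.151), and *L3mbtl2* in SMF than in unstimulated cells, by 2.07 ± 0.83 (adjusted p = 0.12). Of 7 further partners of the network, 5 were tested. In control against unstimulated cells 1 was called lower, against 12.6% of all genes. This was *Mycbp2*, which encodes a MYC binding ubiquitin ligase, with -1.09 on the log2 scale (adjusted p = 0.106). In SMF against unstimulated cells 1 was called higher, against 22.4% of all genes. This was *Pvt1*, the noncoding RNA gene beside *Myc*, with a change of 1.99 ± 0.59 (adjusted p = 0.0567). *Pvt1*, named after its values were seen, had 1.12 and 0.26 FPKM in unstimulated, 1.80 and 2.46 FPKM in control, and 7.21 and 4.15 FPKM in SMF libraries.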

How the data were processed

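RNA from 6 libraries (2 unstimulated, 2 control, 2 SMF), made with a kit that keeps strand, was quantified by the authors. Per the file headers StringTie 1.3.5 was run on annotated transcripts of GRCm38 (GENCODE M19) with reads treated as stranded (whether the setting matches the kit is not given in the sources used here), and the submitters' processing notes name Trimmomatic 0.36 and HISAT2. The deposited FPKM, TPM and coverage per transcript were summed or averaged here per gene; whole reads are not given, so no counting interval was computed. A deposited table with 3 value columns that match no sample was not used. For 14991 genes averaging 1 FPKM or more, limma 3.58.1 (R 4.3.3) was run on log2(FPKM + 1) with 3 groups, with a variance trend and 3 residual degrees of freedom, and p values were adjusted by Benjamini-Hochberg. Fold changes on this scale understate the change of low genes. The procedure was tested on simulated data. The members and lists were chosen with earlier results of these data known. All members are named, and from each other list at most 4 called genes per comparison that average 5 FPKM or more and change most. *Txnip*, *Arrdc4* and the 3 genes most like *Myc* are named by rule, while *Ncl*, *Pvt1* and *Mlxip* were chosen after their values were seen. Gene and transcript types came from GENCODE M21 and promoter sequences from RefSeq. Alternatives were other pseudocounts, filters, scalings, TPM, blocks, thresholds and left-out libraries; coding transcripts only, last exons left out, and ratios without *Mxd3* were chosen after seeing the data.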

Additional observations from a re-analysis of the deposited data

How the results depend on the processing

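With 2 libraries per group no call of a network gene held under every alternative. For control against unstimulated cells, 5 network genes were called higher. The count was 3 with TPM or without the variance trend, against 10.9 and 12.3% of all genes. It was 2 with only the 4 libraries compared or with coding transcripts only, against 10.1 and 12.2%. It was 1 with an adjusted p or with last exons left out, against 4.48 and 11.1%. The count was also lower with any library left out, most without unstimulated replicate 2, control replicate 2 or either SMF library. With last exons left out 1 network gene was called lower. For SMF against unstimulated cells, 4 were called higher. The count was 2 with 1 median and 0 with 1 sum over protein-coding genes, against 18.4 and 15.4% of all genes. It was 1 with trimmed means, an adjusted p or last exons left out, against 17.9, 14.1 and 21.8%. Among the fits with a library left out, the count was lowest without unstimulated replicate 2 or either SMF library. In the same comparison 1 was lower under each of the 3 scalings, without the variance trend and with last exons left out. For SMF against control cells, where 0 were called, 2 were lower with 1 median, 1 with the other 2 scalings and 1 with a fold limit of 1.5. Of 14991 genes, 1441 were lower with 1 median, 1356 and 1354 with the other 2 scalings, and 1050 with that fold limit. Without control replicate 1 the difference of *Mga* was larger. MYC activated targets called higher numbered 40 in control against unstimulated cells, 16 with an adjusted p and 25 to 41 with a library left out, the 25 without control replicate 2. In SMF against control cells they numbered 32, 16 under each of the 3 scalings, 0 with an adjusted p and 18 to 34 with a library left out, with 20 or fewer without control replicate 1 or either SMF library. With last exons left out, called changes reversed to -0.12 in *Max*, -1.29 in *Mxd3* and -0.11 in *Mlx* for control, and to -0.40 in *Myc* and -0.73 in *Mxd3* for SMF against unstimulated cells; the cause was not tested. Same-numbered libraries did not deviate together across groups (correlations of 0.021 to 0.096), and with the replicate number as a block the counts of network genes called higher were 5, 4 and 0, with *Max* in place of *Mxi1* among the 4; for control against unstimulated cells, with the run as a block, the count was 5.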
